A study of Mus musculus with 32 samples.

Results

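The *Sult2a* genes encode the hepatic sulfotransferases that act on bile acids and steroids, and 8 of the 54532 genes in the deposited liver RNA-Seq table carry such a symbol, *Sult2a1* to *Sult2a8*. All 8 were taken by gene symbol and chosen by their read counts, because their level was lower in *Cyp2c70* KO mice and much higher on the ileal bile acid transporter inhibitor (IBATi) SC-435. Values of KO against WT mice and of SC-435 against chow are therefore given as a description. Counts of members past the thresholds are printed for those contrasts beside the share of all genes, but nothing is read from them. The test is kept for females against males. Sex was not a factor in the choice, but the groups compared were among the values it used. P-values of members are printed for *Sult2a7* and *Sult2a8* alone. The other members passed the filter on low counts only through the females and so had to differ. The samples were livers of 32 individual C57BL/6 mice of 12 weeks of age, in 8 groups of 4: female WT chow, female KO chow, female WT SC-435, female KO SC-435 and the same 4 groups of males. KO mice (cyp2c70 -/-) derive from 1 founder in which CRISPR-Cas9 removed exon 2 of *Cyp2c70*, the enzyme that makes the hydrophilic muricholic acids of mice, and WT mice carry the intact gene. Treated mice ate chow with 0.006% SC-435 (about 11 mg/kg/day), and all other mice ate chow. The labels put the start 3 weeks after weaning, whereas the ages and feeding time in the study's text put it at weaning.

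Sulfotransferases of this family move a sulfonate group from the donor PAPS (3′-phosphoadenosine-5′-phosphosulfate) onto a hydroxyl group of a bile acid or steroid such as dehydroepiandrosterone. A sulfated bile acid is more soluble in water, is poorly taken up again in the intestine and leaves the body more easily in feces and urine. In mouse liver several members of the family are known as female-predominant genes, and *Sult2a8* has been characterised as a liver sulfotransferase that prefers bile acids.

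The 8 genes lie side by side on chromosome 7 (GRCm38), within 870.3 kb from 13623967 to 14494230, in the order *Sult2a5*, *Sult2a2*, *Sult2a1*, *Sult2a4*, *Sult2a3*, *Sult2a6*, *Sult2a8* and *Sult2a7*. *Sult2a5* and *Sult2a2* are on the plus strand and the other members on the minus strand. Of the 26 genes of the table in this span, 9 are protein coding, the 8 members and *Obox8*. In the GENCODE annotation the coding sequence of *Sult2a1* was 94.9% identical to that of *Sult2a5*, 94.0% to *Sult2a4*, 93.7% to *Sult2a3* and 91.4% to *Sult2a2*. *Sult2a1* shared 89.7% of aligned coding bases with *Sult2a6*, 81.6% with *Sult2a7* and 69.4% with *Sult2a8*, so that *Sult2a8* stood farthest from it. Of all stretches of 50 bases in its annotated transcripts, 62.1% of those of *Sult2a2* also occurred in another transcript, against 34.5% for *Sult2a5*, 33.2% for *Sult2a1*, 25.5% for *Sult2a4*, 8.36% for *Sult2a3*, 6.63% for *Sult2a6*, 1.72% for *Sult2a8* and 0% for *Sult2a7*. The read length and the treatment of reads with several matches are not given in the sources used here, so reads may have been lost or moved among *Sult2a1* to *Sult2a6*, and their separate values are uncertain to that extent. The values of *Sult2a7* and *Sult2a8* carry this doubt least.

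**Figure D1:**
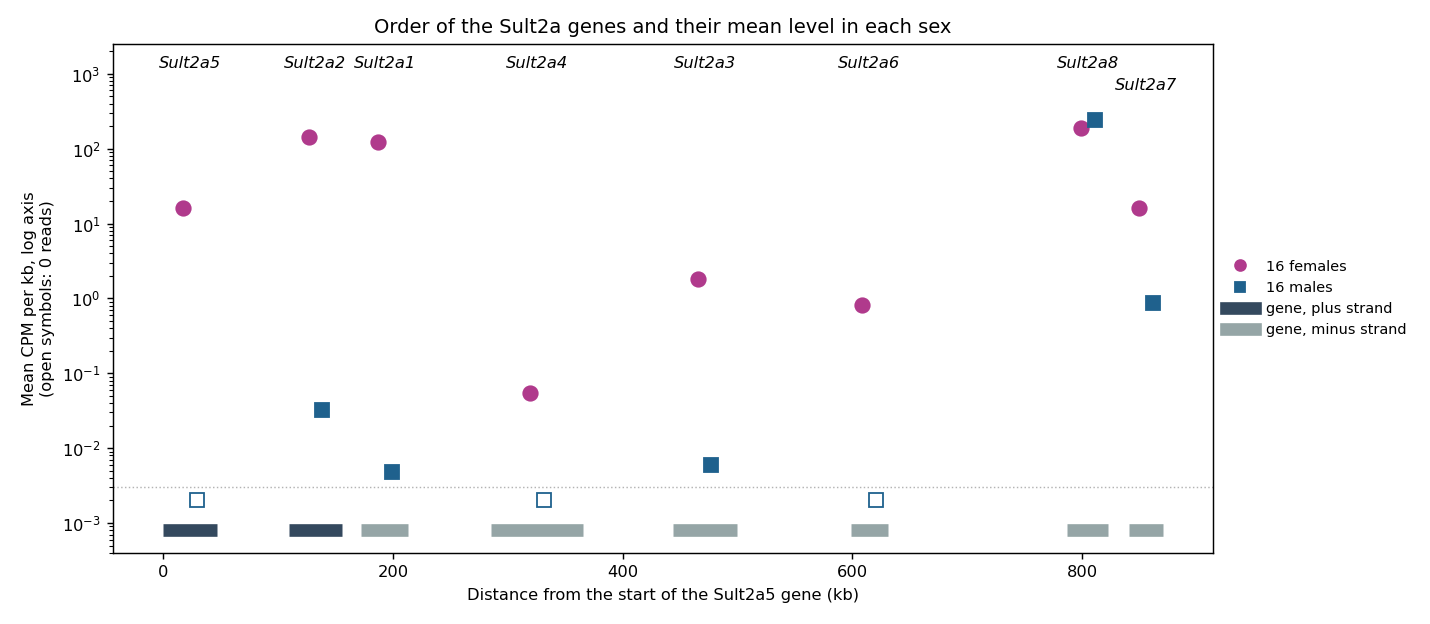
Each bar at the foot of the plot is a *Sult2a* gene, drawn to scale by its distance in kb from the start of *Sult2a5*, dark for the plus and light for the minus strand. Circles (16 females) and squares (16 males), set slightly apart sideways, give the mean CPM per kb of gene length on a log axis, with open symbols for 0 reads. All members but *Sult2a8* sit far lower in males, and *Sult2a4*, *Sult2a5* and *Sult2a6* had 0 reads in males.

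Sequences just before the start of the gene were at hand for 5 of the 8 members (RefSeq, GRCm38.p6), and those of *Sult2a5*, *Sult2a4*, *Sult2a3* and *Sult2a6*, which were counted almost only in females, are shown to let their likeness be seen. The 250 bases before the RefSeq start are given 5′ to 3′ on the gene's strand.
Sult2a5, chr7:13623717-13623966, plus strand: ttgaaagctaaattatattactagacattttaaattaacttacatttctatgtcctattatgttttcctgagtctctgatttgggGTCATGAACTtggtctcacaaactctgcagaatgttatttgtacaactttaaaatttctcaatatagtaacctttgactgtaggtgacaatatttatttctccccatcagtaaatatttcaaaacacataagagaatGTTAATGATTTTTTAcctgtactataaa
Sult2a4, chr7:13989589-13989838, minus strand: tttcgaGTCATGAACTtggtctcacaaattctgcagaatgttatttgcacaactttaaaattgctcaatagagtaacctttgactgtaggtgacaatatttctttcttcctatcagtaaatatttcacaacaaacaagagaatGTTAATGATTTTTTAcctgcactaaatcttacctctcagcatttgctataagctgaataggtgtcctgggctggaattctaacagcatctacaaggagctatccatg
Sult2a3, chr7:14123049-14123298, minus strand: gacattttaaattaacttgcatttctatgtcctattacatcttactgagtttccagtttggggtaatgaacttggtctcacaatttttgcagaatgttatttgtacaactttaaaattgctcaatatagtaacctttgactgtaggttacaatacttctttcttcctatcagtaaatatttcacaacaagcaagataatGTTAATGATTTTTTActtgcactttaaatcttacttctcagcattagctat
Sult2a6, chr7:14254871-14255120, minus strand: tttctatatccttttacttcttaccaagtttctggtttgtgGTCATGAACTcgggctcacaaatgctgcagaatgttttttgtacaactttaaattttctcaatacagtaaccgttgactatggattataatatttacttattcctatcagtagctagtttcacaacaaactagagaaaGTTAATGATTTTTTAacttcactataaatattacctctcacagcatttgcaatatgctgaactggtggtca
Capitals mark a pair of words found by comparing these 4 sequences, the longest common to all 4 and the shortest listed for 3 of them, of 10 bases. Other words, of up to 20 bases, were shared by 3 or all 4 and are not marked. The longest word common to all 4, GTTAATGATTTTTTA, began at -28 in *Sult2a5*, -107 in *Sult2a4*, -51 in *Sult2a3* and -71 in *Sult2a6*. Searched on both strands, it was present in 4 of 32851 RefSeq windows of the same length (0.0122%), which are these 4. GTCATGAACT began at -165 in *Sult2a5*, -244 in *Sult2a4* and -209 in *Sult2a6* and was not in the window of *Sult2a3*, and 21 windows (0.0639%) held it. A related inverted repeat in a rat *Sult2a* promoter is known as a binding site of nuclear receptors. The marked words do not overlap each other, and neither was in the 2 windows of *Sult2a8*. Since the words were found in these genes, a match is a description of sequence and not a binding site.

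Library totals lay between 36476021 and 44771350 counted reads. *Cyp2c70* matched the genotype labels. It was at 704 ± 104 CPM (CPM being the reads of a gene scaled to the TMM-corrected library total; SD, n = 4) in female WT mice and 165 ± 12.6 CPM (SD, n = 4) in female KO mice on chow, and the ranges of WT and KO mice did not overlap in any sex or diet. All 9 hepatocyte markers, albumin among them, had reads in every library. The library of male WT chow replicate 1 stood apart, with a TMM factor of 0.622 against at least 0.912 in the other 31, and a mean correlation of 0.930 with its group against at least 0.971 elsewhere. The log2 fold changes of *Sult2a8* that rest on it, and the likeness to *Sult2a8*, are given with and without it. Other results, and the shares of all genes, include it unless stated. Without it, the genes past the thresholds given below rose from 217 to 607 between the sexes in WT mice on chow. They rose from 166 to 637 for KO against WT males on chow and from 6 to 160 for SC-435 in WT males.

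In males, 7 of the 8 genes were nearly silent. No read of *Sult2a4*, *Sult2a5* or *Sult2a6* was counted in any of the 16 males, which allows up to 3 reads in a group. *Sult2a1*, the hydroxysteroid sulfotransferase after which the family is named, had 3 reads in all males and 85442 in all females. *Sult2a2* had 16 reads in males and 72073 in females, and *Sult2a3* had 4 and 1240. *Sult2a5* reached 11417 reads in females, *Sult2a6* 530 and *Sult2a4* 36. *Sult2a7* was the only other member besides *Sult2a8* with reads in all 32 mice, 716 in males and 13897 in females. *Sult2a8* differed from the rest, with 514961 reads in males and 420744 in females.

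**Figure D2:**
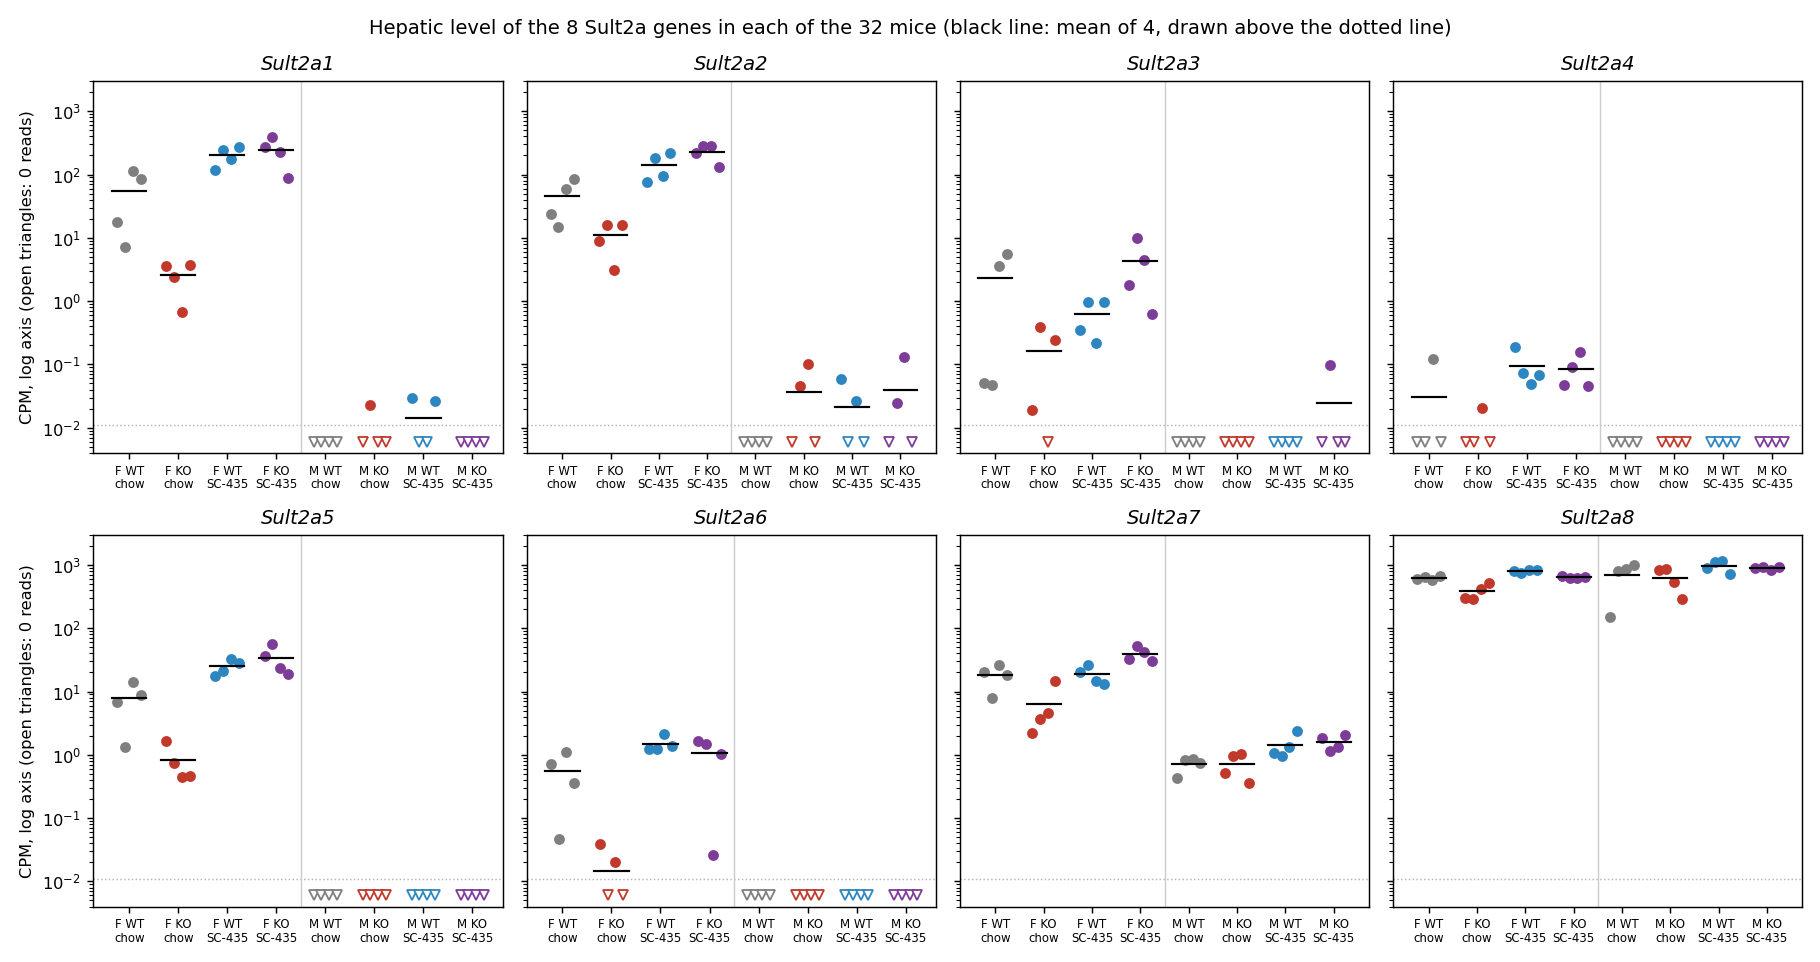
Each panel shows 1 *Sult2a* gene, with CPM on a log axis against the 8 groups (F, female; M, male), 1 point per mouse, a black line at the mean of 4 and open triangles for libraries with 0 reads. Reads of *Sult2a1* to *Sult2a6* lie on the female side only, apart from single points of at most 0.132 CPM in males. *Sult2a4* is near the floor in females too, at 0.190 CPM or less, and *Sult2a8* is high in both sexes.

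On chow, WT females and males were compared first. *Sult2a1* stood at 18.1, 7.14, 114 and 84.2 CPM in the 4 female WT mice and at 0 in the 4 males. The females differed widely among themselves but every female lay above every male. The female level over the group was at least 2641-fold higher, taking 3 reads over the male group as the bound. Such bounds pool the 4 mice of a group and cover counting error only, not the spread among mice. *Sult2a2* was at 24, 15.0, 58.9 and 85.6 CPM in females and at 0 in males, at least 2171-fold higher. *Sult2a5* was at 6.90, 1.32, 14.4 and 8.78 CPM in females, at least 367-fold higher. *Sult2a7* was at 20.1, 8.01, 26.1 and 18.5 CPM in females against 0.429, 0.821, 0.867 and 0.752 CPM in males. Its log2 fold change was 4.63 (standard error 0.41; edgeR's quasi-likelihood test, adjusted p = 0.000719). Levels of chow-fed females were among the values that chose the genes. The p-values of members in the chow comparisons of the sexes are therefore not independent of the choice.

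The remaining members did not share this picture in full. *Sult2a3* had 2, 2, 150 and 235 reads in the female WT mice on chow and *Sult2a6* had 28, 2, 46 and 15, with 0 in all males, and neither passed the filter on low counts. *Sult2a4* had 5 reads in 1 of the 4 females and 0 in the others. *Sult2a8* was at 599, 654, 580 and 679 CPM in females and at 152, 816, 853 and 999 CPM in males. Of the males only replicate 1 lay below the highest female, and the log2 fold change of females over males was -0.18 (standard error 0.47; edgeR, adjusted p = 0.919). Without that library it was -0.51 (edgeR, adjusted p = 0.0193), under the size that counted as a call.

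In this comparison 4 members were called higher in females, meaning that the log2 fold change exceeded 1 and the adjusted p was below 0.05, as were 0.709% of all genes tested. Of the members, 6 had all females above all males, against 6% of genes tested. Here and below, such counts include members that failed the filter on low counts, whereas the shares of genes leave such genes out. These counts describe the family and lend it no support, for the reason given above. With female WT chow replicate 1 or replicate 4 left out, 2 members were called. The summed CPM of the 9 hepatocyte markers was 100200 to 128400 in these females and 80340 to 208800 in these males, and that of 6 cholangiocyte markers was 36.1 to 69.3 and 24 to 34.8; their part in the result was not tested.

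The sex difference was seen in KO mice on chow too, at lower female levels. *Sult2a1* was 494-fold higher in females by reads, with a counting interval from 88.2 to 19530 because the males held 1 read. *Sult2a2* was 295-fold higher, with a counting interval from 143 to 736. *Sult2a5* was at least 54.3-fold higher. *Sult2a7* was higher by 3.15 on the log2 scale (standard error 0.63; edgeR, adjusted p = 0.0342), and its call was lost in 5 of 8 fits that left out 1 library, male KO chow replicates 1, 2 or 3 or female KO chow replicates 2 or 3 (edgeR, adjusted p up to 0.0856). Without female KO chow replicate 2, 2 members were called in place of 4. *Sult2a8* was lower in females by -0.71 (standard error 0.34), which did not pass the test (edgeR, adjusted p = 0.326). The 4 called members stand beside 0.743% of all genes called higher in females in this comparison, and 4 members had all females above all males, beside 5.33% of genes. Cholangiocyte markers summed to 131 to 289.5 CPM in the females and 144 to 1178 CPM in the males of this comparison; their part in the result was not tested.

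On SC-435 the sexes were apart too. The high level of treated females was among the values that chose the genes, which these comparisons share. The p-values of members here are therefore not independent of the choice and lend the family no support. In WT mice *Sult2a1* was 15360-fold higher in females by reads (counting interval 4251 to 126800, 2 reads in males) and *Sult2a5* was at least 1267-fold higher. *Sult2a6* was at least 76.0-fold higher and *Sult2a7* was higher by 3.70 on the log2 scale (standard error 0.32; edgeR, adjusted p = 0.000149). With *Sult2a2*, 5 members were called, beside 1.14% of all genes, and in 7 members all females lay above all males, beside 7.97% of genes. In KO mice *Sult2a1* was at least 13120-fold higher, *Sult2a3* 169-fold higher with a counting interval from 65.9 to 623 and *Sult2a7* higher by 4.61 on the log2 scale (standard error 0.21; edgeR, adjusted p = 1.13e-07). With *Sult2a2* and *Sult2a5*, 5 members were called here, beside 4.06% of all genes, and in 7 members all females lay above all males, beside 14.4% of genes. *Sult2a8* ran the other way in KO mice on SC-435, at 646 ± 19.8 CPM in females and 894 ± 44.0 CPM in males (SD, n = 4 each), with no overlap (all females were lower, as in 13.8% of genes) and a log2 fold change of -0.47 (standard error 0.06; edgeR, adjusted p = 0.000476). This was under the size that counted as a call. Among the alternative fits the adjusted p of *Sult2a8* here reached 0.471 (edgeR). In treated WT mice its difference of -0.27 (standard error 0.15) did not pass the test (edgeR, adjusted p = 0.297). The summed CPM of cholangiocyte markers was 97.7 to 141 in treated KO females and 49.1 to 59.9 in treated KO males, 3 of the 6 markers tested being called higher in females. Stellate cell markers summed to 180.4 to 235 and 68.6 to 123 CPM, again with 3 of 6 called higher in females; the part of these cells in the result was not tested.

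Whether the loss of *Cyp2c70* moved the family was looked at in chow-fed females, the contrast that chose the genes. *Sult2a1* was at 3.54, 2.44, 0.665 and 3.76 CPM in KO mice, against 18.1, 7.14, 114 and 84.2 CPM in WT mice. All KO mice lay below all WT mice, and the mean of 2.60 ± 1.41 CPM was 4.66% of the WT mean of 55.8 ± 51.5 CPM (SD, n = 4 each; log2 fold change -4.43, standard error 0.86). *Sult2a2* was at 9.07, 15.7, 3.11 and 15.7 CPM in KO mice, which overlapped the lowest WT mouse at 15.0 CPM (log2 fold change -2.08, standard error 0.59). *Sult2a5* was at 1.62, 0.755, 0.444 and 0.461 CPM in KO mice, a mean of 10.5% of that in WT mice (log2 fold change -3.25, standard error 0.66).

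The low members had few reads, and of them only *Sult2a3* was fitted. *Sult2a3* had 1, 20, 0 and 10 reads in KO mice, against 2, 2, 150 and 235 in WT mice. Its 2 lowest WT mice lay within the KO range (log2 fold change -3.84, standard error 1.38). *Sult2a6* had 2, 0, 1 and 0 reads in KO mice and 28, 2, 46 and 15 in WT mice. *Sult2a4* had 1 read in KO and 5 in WT mice, each from a single mouse. *Sult2a7* was at 2.24, 3.72, 4.66 and 14.8 CPM in KO mice, the last of which lay among the WT values of 8.01 to 26.1 CPM (log2 fold change -1.53, standard error 0.54). *Sult2a8*, at 298, 285, 418 and 521 CPM, lay below the WT range of 580 to 679 CPM by a smaller step, a log2 fold change of -0.73 (standard error 0.19).

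In this contrast 3 members were called lower (*Sult2a1*, *Sult2a2* and *Sult2a5*), where 1.01% of all genes tested were, and 3 members had KO mice that all lay below WT mice, where 8.82% of genes did. With 1 library left out the count ran from 2, without female WT chow replicate 3, to 5, without female KO chow replicate 4. The median log2 fold change was -2.66 over the 6 members tested and -0.02 over all 16205 genes. In bulk liver, fewer cells of a type and less RNA per cell cannot be told apart. Markers of other cells moved in the same libraries. The summed CPM of the 9 hepatocyte markers was 63540 to 82820 in KO and 100200 to 128400 in WT mice, with 1 called lower. The 6 cholangiocyte markers summed to 131 to 289.5 CPM in KO and 36.1 to 69.3 CPM in WT mice (4 of 6 called higher), the 6 macrophage markers to 440.5 to 628 and 307 to 359 CPM (3 of 6 called higher) and the 6 stellate cell markers to 234 to 680.1 and 103 to 144 CPM (4 of 6 called higher). Their part in the differences of the *Sult2a* genes was not tested.

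The mean levels of *Sult2a1*, *Sult2a2*, *Sult2a3*, *Sult2a5* and *Sult2a7* were highest in KO females on SC-435, those of *Sult2a4* and *Sult2a6* in WT females on SC-435 and that of *Sult2a8* in WT males on SC-435. *Sult2a1* was at 268, 398, 228 and 87.9 CPM in these mice, against 0.665 to 3.76 CPM in KO mice on chow. No treated mouse came near the chow range, and the mean of 245 ± 128 CPM (SD, n = 4) was 94.3 times that on chow (log2 fold change 6.57, standard error 0.60). *Sult2a2* was at 218, 279.9, 278 and 132 CPM, 20.8 times the mean on chow (log2 fold change 4.38, standard error 0.48). *Sult2a5* was at 36.0, 56.6, 23.3 and 18.7 CPM, 41.0 times the mean on chow (log2 fold change 5.33, standard error 0.48). *Sult2a7* was at 33.2, 51.5, 42.2 and 30.7 CPM, and all 4 mice lay above the highest KO mouse on chow at 14.8 CPM (log2 fold change 2.65, standard error 0.49).

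Among the low members, *Sult2a3* was at 1.78, 9.99, 4.51 and 0.637 CPM in treated KO females, all above the highest KO mouse on chow at 0.387 CPM (log2 fold change 4.70, standard error 1.0). *Sult2a6* had 71, 64, 1 and 46 reads against at most 2 on chow, and only replicate 3 fell back among the untreated mice. *Sult2a4* had 2, 4, 6 and 2 reads. *Sult2a8* was at 671, 629.8, 629.8 and 653 CPM on SC-435, above its chow range of 285 to 521 CPM (log2 fold change 0.76, standard error 0.18). The spread of *Sult2a8* was small in treated KO mice, with an SD of 19.8 CPM against 111 CPM on chow. In this contrast 5 members were called higher, where 2.11% of all genes were, and 7 members had groups that did not overlap, where 11.2% of genes had treated mice that all lay above the untreated. The summed CPM of hepatocyte markers was 87780 to 101500 in the treated KO mice (0 of 9 called), and macrophage markers summed to 242 to 385 CPM (3 of 6 called lower). Stellate cell markers summed to 180.4 to 235 CPM (3 of 6 called lower), and of cholangiocyte markers, at 97.7 to 141 CPM, 0 of 6 were called. Of 4 lymphocyte markers 1 was called lower. The part of these cells in the differences was not tested.

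**Figure D3:**
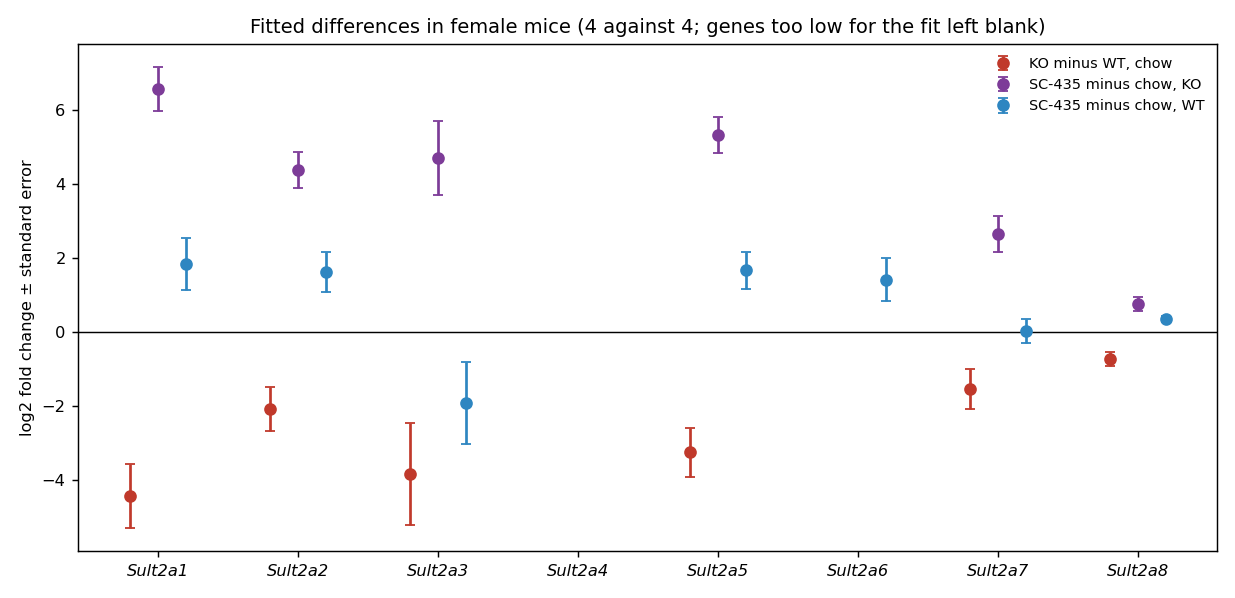
The y axis gives the fitted log2 fold change with its standard error for each *Sult2a* gene in females (4 against 4 mice) in 3 comparisons, shown by colour. *Sult2a1* runs from -4.43 (KO minus WT on chow) to 6.57 (SC-435 minus chow in KO), *Sult2a8* only from -0.73 to 0.76, and genes too low for a fit have no point.

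In WT females the difference between SC-435 and chow was smaller. *Sult2a1* was at 116, 242, 179 and 269 CPM on SC-435, and its lowest value lay just above the highest on chow, 114 CPM (log2 fold change 1.85, standard error 0.70). *Sult2a2* was at 75.5, 182, 94.9 and 218 CPM, which overlapped the chow range (log2 fold change 1.63, standard error 0.53), and *Sult2a5* was at 17.8, 21.2, 32.4 and 28.5 CPM, which did not (log2 fold change 1.67, standard error 0.51). *Sult2a6* had 53, 50, 89 and 62 reads on SC-435, each more than any chow mouse (log2 fold change 1.42, standard error 0.58). *Sult2a7* was level, at 18.6 ± 5.98 CPM on SC-435 and 18.2 ± 7.53 CPM on chow (SD, n = 4 each). *Sult2a3* was lower on average, with 15, 39, 9 and 43 reads on SC-435, between the low and the high pair of chow mice (log2 fold change -1.91, standard error 1.11). *Sult2a8* was at 796, 744, 839 and 825 CPM, above all chow mice (log2 fold change 0.35, standard error 0.08). Of 7 members tested, 0 were called by edgeR or by DESeq2 in this contrast, where 0.686% of all genes were called higher. An unadjusted p under 0.05 was reached by 5 members, beside 3114 of all 15739 genes tested (edgeR). In 4 members all treated mice lay above the chow mice, where 7.68% of genes did.

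Treated KO females were also set beside treated WT females. *Sult2a7* was higher in KO mice, with a log2 fold change of 1.09 (standard error 0.22) and no overlap, as for 9.07% of genes, and *Sult2a3* was higher by 2.76 (standard error 0.76). *Sult2a8* was lower by a small step, with all KO mice under the lowest WT mouse, as for 9.34% of genes (log2 fold change -0.31, standard error 0.06). *Sult2a1*, *Sult2a2*, *Sult2a5* and *Sult2a6* overlapped between the genotypes, with log2 fold changes from -0.50 for *Sult2a6* to 0.67 for *Sult2a2*. Of the members, 2 were called higher (*Sult2a3* and *Sult2a7*), beside 1.99% of all genes, but 0 were without female WT SC-435 replicates 3 or 4 or female KO SC-435 replicate 2, and 1 was without female WT SC-435 replicates 1 or 2 or female KO SC-435 replicate 3. Cholangiocyte markers summed to 97.7 to 141 CPM in the treated KO and 31.3 to 37.8 CPM in the treated WT females (4 of 5 called higher), and stellate cell markers to 180.4 to 235 and 75.6 to 107 CPM (4 of 6 called higher); their part in the differences was not tested. The contrasts share groups of mice with those above, so they are not independent of one another.

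In males only *Sult2a7* and *Sult2a8* had enough reads for a fit. *Sult2a7* stayed low, at 0.717 ± 0.198 CPM in WT and 0.724 ± 0.336 CPM in KO mice on chow and at 1.43 ± 0.636 and 1.61 ± 0.422 CPM on SC-435 (SD, n = 4 each). In both genotypes all treated males lay above all chow-fed males, a pattern in 13.5% of all genes in KO mice and 3.69% in WT mice, and the log2 fold changes were 1.16 (standard error 0.37) in KO and 0.99 (standard error 0.38) in WT males. *Sult2a8* was at 834, 858, 539.5 and 287 CPM in KO males on chow, which overlapped the WT males (log2 fold change -0.15, standard error 0.54, and -0.48 without male WT chow replicate 1). On SC-435 it was at 882, 929, 837 and 928 CPM in KO and 907, 1096, 1156 and 709 CPM in WT males. Its log2 fold changes on SC-435 were 0.51 (standard error 0.29) in KO and 0.46 (standard error 0.48) in WT males, the latter 0.12 without male WT chow replicate 1. In males 0 members were called by edgeR in these 4 contrasts, beside 1.05%, 0.0259%, 6.45% and 0.0394% of all genes for KO against WT on chow, KO against WT on SC-435, SC-435 in KO and SC-435 in WT mice. An unadjusted p under 0.05 was reached by 1 member with SC-435 in each genotype (edgeR), and DESeq2 called 1 in KO males. Of all genes, 5702 of 15984 reached it in KO males and 931 of 15211 in WT males.

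The make-up of the family changed with these values. Per kb of gene length, which is used to set levels of different genes side by side, *Sult2a8* led in chow-fed females, at 191 ± 14.1 CPM per kb in WT and 116 ± 33.8 CPM per kb in KO mice (SD, n = 4 each). *Sult2a2* came next in both groups, at 61.9 ± 43.9 and 14.7 ± 8.19 CPM per kb, and its range lay apart from that of *Sult2a8*. In treated KO females the order was *Sult2a2* (306 ± 94.2 CPM per kb), *Sult2a1* (241 ± 125) and *Sult2a8* (197 ± 6.03), though the ranges of neighbours overlapped. The order rests on the gene lengths used, 741 bases for *Sult2a2*, 1020 for *Sult2a1* and 3284 for *Sult2a8*. In plain CPM *Sult2a8* still led in treated KO females, at 646 against 245 for *Sult2a1* and 227 for *Sult2a2*. Below these 3, *Sult2a5* and *Sult2a7* followed in each of the 4 female groups except KO chow, where *Sult2a7* stood above *Sult2a1* in 3 of 4 mice. In WT females on chow, only the leading pair of the 7 pairs of neighbours lay apart in its ranges. Within a mouse, 5 of these pairs held their order in all 4 mice, *Sult2a2* was above *Sult2a1* in 3 and *Sult2a3* above *Sult2a6* in 2. *Sult2a4* was last in all 4 groups.

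The 7 members other than *Sult2a8* made up 28.6%, 14.9%, 56.6% and 52.3% of the summed CPM per kb of the family in the 4 female WT mice on chow. They made up 6.57% to 24.1% in KO mice on chow, 50.8% to 70.4% in WT mice on SC-435 and 60.7% to 82.0% in KO mice on SC-435. The treated KO mice did not overlap either chow group. These shares rest on the gene lengths used as well. In males the share lay between 0.160% and 0.860%.

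**Figure D4:**
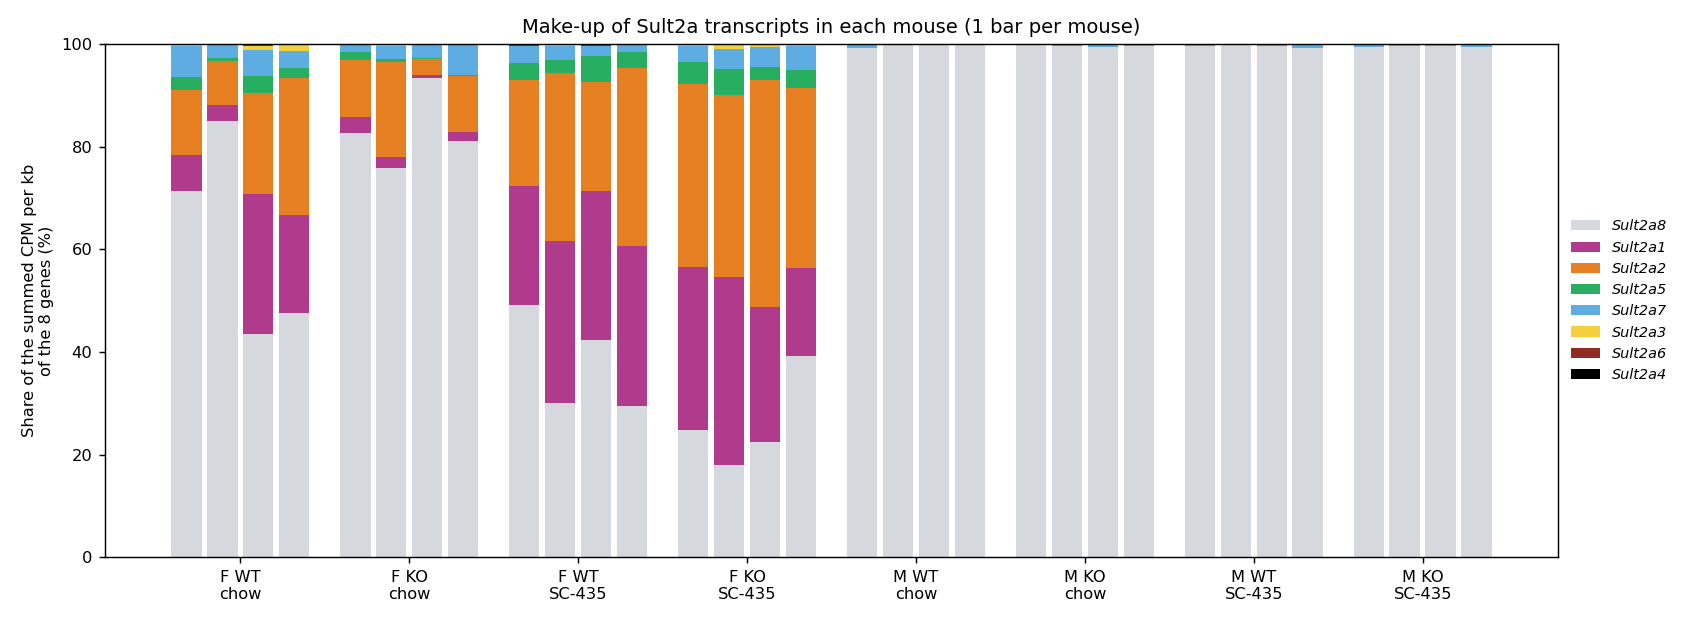
Each bar is 1 mouse (F, female; M, male), and the colours give the share in percent of the summed CPM per kb that each *Sult2a* gene held. *Sult2a8* (grey) fills nearly the whole bar in all 16 males, while in KO females on SC-435 the other 7 genes, chiefly *Sult2a1* and *Sult2a2*, hold 60.7% to 82.0%.

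Some of the members varied together from mouse to mouse. After the mean of each group was taken out of log2 CPM, *Sult2a1* correlated with *Sult2a2* at r = 0.89, with *Sult2a3* at 0.85 and with *Sult2a5* at 0.81 over the 16 females, and with *Sult2a8* at -0.11. *Sult2a2* correlated with *Sult2a3* at 0.86 and *Sult2a5* with *Sult2a6* at 0.63. Some pairs were weak, such as *Sult2a2* with *Sult2a6* at 0.07, *Sult2a3* with *Sult2a6* at 0.08 and *Sult2a5* with *Sult2a7* at 0.15. In WT females on chow, replicates 3 and 4 were high in *Sult2a1*, *Sult2a2* and *Sult2a3* alike. *Sult2a7* correlated with *Sult2a8* at 0.51 and with *Sult2a1* at 0.43. These are descriptions without a test, and near-identical members share reads as well as mice.

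Genes whose log2 CPM over the 32 mice was most like that of *Sult2a2* included *Cyp2b13* (r = 0.98), *Eci3*, *Gm29920* and *Sult3a1* (each 0.96), once the family itself was set aside. *Cyp2b13* is a cytochrome P450 and *Sult3a1* another sulfotransferase. These 4 were at 0.198 CPM or less in every male, so the coefficients rest on the difference between the sexes. Within the 16 females they were 0.71 for *Cyp2b13*, 0.71 for *Eci3*, 0.74 for *Gm29920* and 0.68 for *Sult3a1*. *Cyp2b13* was at 327 ± 88.6 CPM in female WT mice on chow, 64.0 ± 99.7 CPM in KO mice on chow and 237 ± 37.5 CPM in KO mice on SC-435 (SD, n = 4 each). *Sult3a1* was at 136 ± 71.9, 14.7 ± 22.2 and 149 ± 13.1 CPM in the same groups. The genes most like *Sult2a8*, the member of highest mean level per kb, included *Chuk* (r = 0.92) and *Scrn3*, *mt-Cytb* and *Osgepl1* (r = 0.91). Their rank rested on male WT chow replicate 1, the library that stood apart, and without it 0 of these 4 were among the nearest 5. Their coefficients without it were 0.89 for *Chuk*, 0.87 for *Scrn3*, 0.86 for *mt-Cytb* and 0.87 for *Osgepl1*. Within the 16 females they were 0.83, 0.90, 0.79 and 0.82.

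Genes of PAPS supply, bile acid transport, other sulfotransferases, nuclear receptors and sex and growth hormone control were read from 6 lists. Of these lists 45 genes are in the table. The lists were chosen with earlier results of these data known, so the p-values of their genes are not independent of the data. *Papss1* and *Papss2* make PAPS, the sulfonate donor. *Papss2* was at 306 CPM in female and 171 CPM in male WT mice on chow, and at 405 and 173 CPM in KO mice on chow, where it was called higher in females (log2 fold change 1.25, standard error 0.18; edgeR, adjusted p = 0.00718). On SC-435 it was higher in females by 0.98 in WT and 0.96 in KO mice, past the p threshold but under the fold threshold (edgeR, adjusted p = 0.00951 and 6.73e-05). *Papss1* did not pass the test in any comparison of the sexes, with log2 fold changes from -0.42 to 0.18 (edgeR, lowest adjusted p = 0.296). Of the 7 genes tested for supply and breakdown of PAPS, 0 were called by edgeR or DESeq2 in any comparison of genotype or diet. In these comparisons 0 to 4 had an unadjusted p under 0.05 (edgeR), beside 931 of 15211 to 5702 of 15984 genes. Some passed the p threshold but not the fold threshold. *Papss2* rose with SC-435 in KO males (0.68; edgeR, adjusted p = 0.00475) and WT females (0.67; edgeR, adjusted p = 0.0104). It did not pass in KO females (0.41; edgeR, adjusted p = 0.118) or WT males (0.54; edgeR, adjusted p = 0.836). *Papss1* was higher in KO than in WT females on SC-435 (0.62; edgeR, adjusted p = 0.016).

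Among 7 exporters of bile acid conjugates, *Abcc4*, a basolateral pump for sulfated bile acids, rose with SC-435 in KO females from 9.41 to 19.8 CPM (log2 fold change 1.07; edgeR, adjusted p = 0.00258), a change of 0.99 and so no call without female KO SC-435 replicate 3. It also rose in KO males (1.5; edgeR, adjusted p = 0.00588) and in WT females (1.2; edgeR, adjusted p = 0.00599). *Slc51b*, a subunit of the organic solute transporter, rose in KO females on chow (log2 fold change 2.46, standard error 0.54; edgeR, adjusted p = 0.0153) and fell with SC-435 in KO females (-3.81; edgeR, adjusted p = 0.00287) and KO males (-3.21; edgeR, adjusted p = 0.0183), the last not without male KO SC-435 replicates 1, 3 or 4 (edgeR, adjusted p up to 0.0591). *Abcg2*, an efflux pump that carries sulfate conjugates, was lower in females than in males in WT chow, KO chow and WT SC-435 mice, by log2 fold changes of -1.07, -1.18 and -1.13 (edgeR, highest adjusted p = 0.00718).

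Of 5 uptake transporters, *Slco1a1* fell in KO females on chow from 139 ± 103 to 24 ± 11.6 CPM (SD, n = 4 each; log2 fold change -2.55; edgeR, adjusted p = 0.0129). *Slco1a1* was called lower in females than in males in 3 of the 4 comparisons, and in WT mice on chow its log2 fold change of -1.88 did not pass the test (edgeR, adjusted p = 0.276), while *Slco1a4* was higher in females in KO mice on chow (2.05; edgeR, adjusted p = 0.00651) and on SC-435 (1.46; edgeR, adjusted p = 0.000278) and rose with SC-435 in KO males (1.21; edgeR, adjusted p = 0.0175), a call lost without male KO chow replicate 3 or male KO SC-435 replicate 3. Among other sulfotransferases, *Sult1b1* rose with SC-435 in KO females from 12.2 to 42.1 CPM (log2 fold change 1.79; edgeR, adjusted p = 0.00691), as did the estrogen sulfotransferase *Sult1e1* from 0.325 to 1.22 CPM (1.89; edgeR, adjusted p = 0.0362). *Sult1e1* was also called higher in females in WT chow, WT SC-435 and KO SC-435 mice. Only the last of its 4 calls held with any library left out, since leaving out 1 library ended the others in 5, 6 and 4 of 8 fits (edgeR, adjusted p up to 0.152).

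Among 10 nuclear receptors and factors, *Nr1i3* (the constitutive androstane receptor) fell in KO females on chow from 56.3 ± 9.29 to 24 ± 6.91 CPM (SD, n = 4 each; log2 fold change -1.24; edgeR, adjusted p = 0.00509). *Nr0b2* (the small heterodimer partner, induced by bile acids through FXR) fell with SC-435 in KO males (-1.95; edgeR, adjusted p = 0.0258) and WT females (-1.36; edgeR, adjusted p = 0.0345), calls that were lost in 4 and 7 of 8 fits with 1 library left out (edgeR, adjusted p up to 0.103). Of the 10 genes for sex and growth hormone control, *Cux2*, *Prlr* and *Esr1* were called higher in females in all 4 comparisons of the sexes. *Cux2*, a female-predominant repressor, was at 26.4 CPM in female and 0.549 CPM in male WT mice on chow (log2 fold change 5.56; edgeR, adjusted p = 0.00218), and the prolactin receptor *Prlr* at 377 and 75.0 CPM (2.33; edgeR, adjusted p = 0.000719). *Onecut1* was lower in females on SC-435 in WT (-2.05; edgeR, adjusted p = 0.0370) and KO mice (-3.21; edgeR, adjusted p = 2.78e-05) and fell with SC-435 in WT females (-2.42; edgeR, adjusted p = 0.0334). *Bcl6*, a male-predominant repressor, fell with SC-435 in KO males (-2.23; edgeR, adjusted p = 0.0342). *Esr1* rose in KO males on chow (1.23; edgeR, adjusted p = 0.0412). With 1 library left out in turn, the calls of *Cux2* and *Prlr* between the sexes and of *Onecut1* in KO mice held in all 8 fits. Those of *Bcl6* and *Esr1* in KO males were lost in 5 and 6 of 8 fits, those of *Onecut1* in WT females and WT SC-435 mice in 7 and 4, and those of *Esr1* between the sexes in 6 fits in WT SC-435 and 1 in KO chow mice.

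Over all lists, 1 gene was called higher and 2 lower of 41 tested in KO against WT females on chow, beside 5.67% and 1.01% of all genes. With SC-435 in KO females, 3 were called higher and 1 lower of 41, beside 2.11% and 3.70% of all genes. Between the sexes, 4 to 5 listed genes were called higher in females and 1 to 3 lower in the 4 comparisons, of 40 to 42 tested. Beside them, 0.709% to 4.06% of all genes were called higher. In either direction, 217 of 15525 genes were called in WT chow mice and 952 of 15804 in KO SC-435 mice.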

How the data were processed

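RNA was taken by the authors from flash-frozen liver with TRIzol, selected by poly-T beads and sequenced by Novogene on Illumina. The submitters' processing notes name HISAT2 2.0.5, featureCounts 1.5.0-p3, DESeq2 1.20.0, GATK 4.1.1.0 and mm10, and counting options and strand use are not given in the sources used here. The authors deposited raw read counts per gene, 1 column per mouse, and these were used. The FPKM values the authors deposited (32 columns) were not used. Also deposited, and not used, were 35 columns of the authors' own comparisons, which hold log2 fold changes, p-values and normalized count signal per group.

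Counts were fitted with edgeR 4.0.16 in R 4.3.3 (filterByExpr and TMM on the 8 libraries of a comparison, quasi-likelihood test, Benjamini-Hochberg adjustment over all genes tested). A gene was called where the log2 fold change exceeded 1 and the adjusted p was below 0.05. CPM came from 1 TMM normalization of all 32 libraries. CPM per kb uses the gene length in the table. The standard error is the log2 fold change over the root of F. Ratios by reads have exact 95% intervals, which, like the bound of 3 reads, cover counting error only. A pseudocount of 0.1 CPM was used to correlate members, and likeness to *Sult2a2* and *Sult2a8* was Pearson's r of log2 CPM with a prior count of 2. Likeness to *Sult2a2* was added after the data were seen, as was leaving male WT chow replicate 1 out of it.

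All members are named, and of each list *Papss1*, *Papss2* and up to 3 called genes of largest change per comparison. Some genes that this rule would name are not reported here. *Cyp2c70* checks the labels. The members and lists were chosen with earlier results of these data known. Labels number the mice without saying that numbers are shared, and same-numbered mice did not deviate together (not every correlation over 0.1 in any comparison), so they were not paired. Within groups, 48 pairs of libraries differed by far more than sampling noise (chi-square per gene at least 18.5). The labels do not say whether mice shared a cage or litter. Scripts were tested on simulated data. As alternatives, DESeq2's size factors in edgeR, scaling to the library total, no filter on low counts, all 8 groups in a single fit, a replicate block, DESeq2 1.42.0 and the omission of each library were tried.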

Additional observations from a re-analysis of the deposited data

How the results depend on the processing

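Of 784 log2 fold changes of members recomputed under an alternative, 15 changed sign, in 5 results whose reported value was at most 0.29 in size. Of the tested sex differences, that of *Sult2a8* in WT chow mice changed sign, to 0.08 with the replicate block and to 0.03 without male WT chow replicate 4, its range with 1 library left out being -0.51 to 0.03. The others were *Sult2a7* (-0.22 to 0.24) and *Sult2a8* (-0.48 to 0.09) for KO against WT males on chow, *Sult2a1* for KO against WT females on SC-435 (-0.05 to 0.57) and *Sult2a7* with SC-435 in WT females (-0.22 to 0.25). The replicate block also ended the calls of *Sult2a5* and *Sult2a7* between the sexes in KO chow mice (for *Sult2a7*, edgeR, adjusted p = 0.133), leaving 2 members in place of 4. Numbers did not pair the mice, and only for KO against WT males on chow did all 4 mice correlate best with their own number. The counts of members called moved as follows. KO against WT females on chow had 3, but 6 with no filter on low counts, 5 in a single fit of all groups and 2 to 5 with 1 library left out. KO against WT females on SC-435 had 2, but 0 in a single fit, 1 with the block and 0 to 2 with 1 library left out. SC-435 in KO males had 1 by DESeq2 in place of 0. The sex comparisons had 2 to 5 (WT chow) and 2 to 4 (KO chow) with 1 library left out.

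Of the listed pathway genes, KO against WT females on chow had 3 called, but 5 with no filter, 1 with the block and 3 to 6 with 1 library left out. KO against WT males on chow had 1, but 0 by library size only or with the block, 3 with no filter, 8 in a single fit, 6 by DESeq2 and 0 to 5 with 1 library left out. KO against WT females on SC-435 had 0, but 1 with the block and 0 to 1 with 1 library left out. SC-435 in WT females had 3, but 1 in a single fit and 1 to 2 with 1 library left out, and SC-435 in WT males had 0, but 2 in a single fit, 3 by DESeq2 and 0 to 2 with 1 library left out. With 1 library left out, SC-435 gave 2 to 6 calls in KO females and 1 to 6 in KO males, and the sex comparison 4 to 9 in WT chow and 4 to 7 in WT SC-435 mice, the first of which had 8 in a single fit. Of the genes most like *Sult2a8*, 1 of 5 remained by Spearman's rho, 0 within females and 0 without male WT chow replicate 1, and of those most like *Sult2a2* 2 by Spearman's rho and 0 within females. The cause was not tested. *Sult2a4* and *Sult2a6* held few reads at this depth, and mice of a group differed widely in *Sult2a3*.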

Other observations

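Some rows of pseudogenes inside the *Sult2a* cluster, named after their values were seen, also held reads in females only. Others did not: *Phf20-ps* had 29 reads in females and 6 in males, and rows such as *Sult2a-ps4* had 0 in both sexes. *Zbed4-ps1*, which lies within *Sult2a5*, had 587 reads in females and 0 in males, *Sult2a-ps1* had 363 and 0, *Zbed4-ps2* (within *Sult2a2*) 334 and 0, *Kat6b-ps2* (within *Sult2a1*) 194 and 0, and *Tmem167-ps1* 187 and 0. *Obox8*, the only other protein-coding gene of the span, had 64 reads in females and 13 in males.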
